A study of Homo sapiens with 12 samples.

Results

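The early response of KMS-11 cells to NSC12 was followed across all measured genes by setting 3 arrays of cells given NSC12 for 6 h against 3 arrays of cells given DMSO for 6 h. These 6 arrays are part of a series of 12, in which the other 6 arrays hold the same agents after 12 h. KMS-11 is an established human multiple myeloma line, a single line of malignant plasma cells whose translocation brings FGFR3 and NSD2 under immunoglobulin heavy chain enhancers. All groups had been held in 1% FBS for 24 h before treatment, so the DMSO controls were low in serum as well. NSC12, given at 6 µM, is a small molecule made to trap fibroblast growth factors outside the cell. The labels do not say whether the 3 arrays of a group came from separate cultures, and p-values therefore measure only the spread between these arrays, which may be technical.

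Cells that meet a sudden change in their surroundings answer within hours through layers of genes. Immediate early genes such as JUN are switched on without new protein synthesis, feedback genes such as the dual-specificity phosphatases then turn the signal down, and phosphorylation of the translation factor eIF2alpha starts a stress programme that holds back protein synthesis until PPP1R15A reverses it. Splicing regulators, small nuclear RNAs and histone transcripts follow rules of their own, because many of them are processed or degraded by dedicated machinery.

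Levels are log2 intensities after quantile normalisation, and changes are log2 differences, NSC12 minus DMSO, each with its standard error (SE) from the model. A gene is said to rise or fall where limma gave an adjusted p under 0.05. Background was set at 6.97, a level under which 95% of 383 olfactory receptor genes had their mean, and 11941 of 20045 genes exceeded it in a 6 h group. Mean array brightness ran from 347 to 634 in DMSO and from 378 to 497 in NSC12, and the dimmest array was DMSO replicate 3. Gene levels correlated at 0.996 to 0.997 between arrays of a 6 h group and at 0.984 to 0.986 between the groups. All 10 plasma cell markers lay above background, against 5 of 7 mature B cell, 1 of 9 T and NK cell, 5 of 10 myeloid and 3 of 10 stromal and endothelial markers. Of these markers of other cells only CD68, which plasma cell lines can express, passed the test (-0.50 ± 0.12 SE, and not as the mean of its probes).

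At 6 h, 1114 genes rose (5.56% of those tested) and 1505 fell (7.51%), and the 3 NSC12 and 3 DMSO arrays did not overlap for 27.9% of genes. Calls were more frequent among genes above background, with 2581 of 11941 called in either direction. Most lists below hold mainly such genes, and their counts are to be read against that share and were not tested. Most of the changes were small, since 82.1% of the 2619 called genes differed by less than 1.5-fold. The large changes were nearly all upward. Rises of at least 4-fold numbered 34 and falls of that size 2, and at 8-fold the numbers were 18 and 0. The 80 genes that rose at least 2-fold held 20 replication-dependent histones, 18 small or ribosomal RNAs, 6 heat shock genes, 5 metallothioneins and 4 chemokines, which leaves 27 others. Median centring aligns only the medians of the arrays and leaves differences in the spread of their intensities. Under it 276 genes rose and 1194 fell, so that rises made up 18.8% of the calls in place of 42.5%. Calls that ended under that setting are named as such below.

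**Figure D1:**
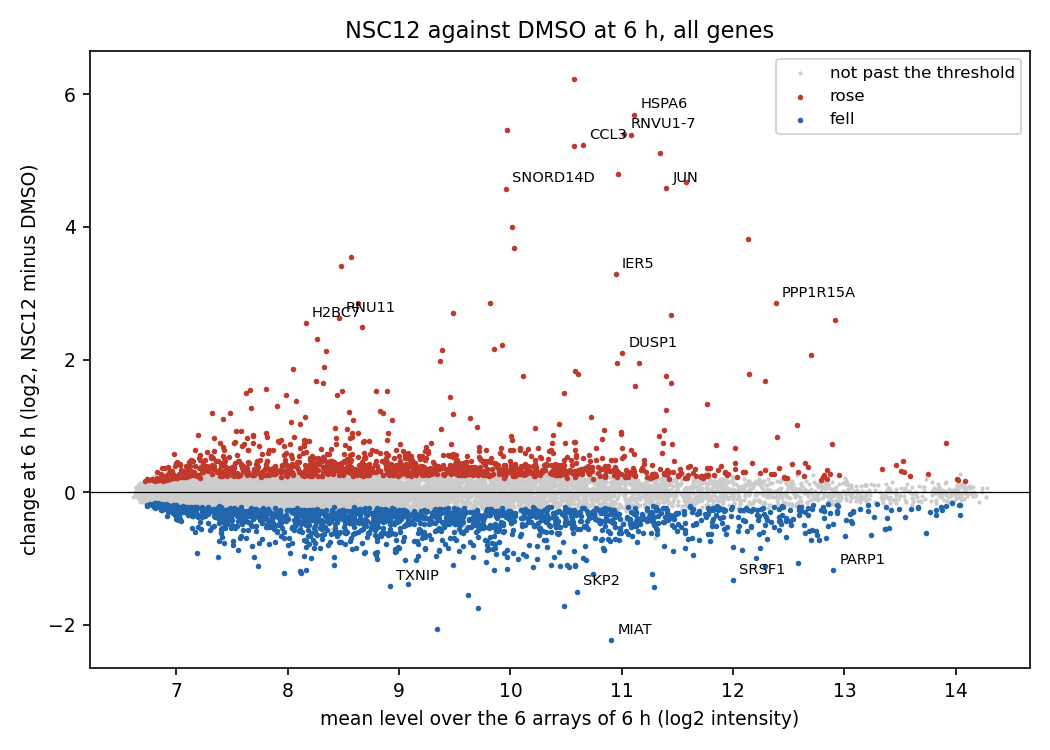
Each point is 1 of 20045 genes, placed by its mean level over the 6 arrays of 6 h (log2 intensity, horizontal) and its change (log2, NSC12 minus DMSO, vertical). Rises are red, falls blue and genes that did not pass grey, and the plot shows 34 rises but 2 falls past 4-fold.

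Heat shock and metallothionein genes stood at the head of the response, with HSPA6 at 5.69 ± 0.07 and MT1G at 5.45 ± 0.10, and are set aside here for the remaining genes. The chemokine CCL3 attracts monocytes and, in myeloma, stimulates bone-resorbing cells. CCL3 lay at 7.96, 8.13 and 8.01 in DMSO and at 13.32, 13.37 and 13.12 in NSC12. The groups lay far apart, and the change was 5.24 ± 0.08 (adjusted p = 3.17e-22). CCL3L1 (5.22) and CCL3L3 (4.68) are near copies of CCL3, and CCL4L1 (at least 10.3-fold, from below background) is a near copy of CCL4. CCL4 itself was measured and was not among the genes called with a rise of at least 2-fold. A probe for a gene may pick up its copies, which leaves the members uncertain. The second probe of CCL4L1 lay below background, and the mean of both was 1.73. Of 35 chemokine and cytokine genes, 9 rose and 2 fell, with a list median of 0.03 beside 0.00 over all genes. TNFSF9, a costimulatory ligand, rose by 0.70 ± 0.09, and IL10, a cytokine that restrains inflammation, fell by 0.62 ± 0.11 (-0.35 as the mean of its probes).

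JUN, the core subunit of the AP-1 transcription factor, rose from 9.17, 9.03 and 9.11 in DMSO to 13.71, 13.68 and 13.69 in NSC12. Its groups were separated by more than 4 log2 units, with a change of 4.59 ± 0.07 (adjusted p = 4.97e-22). IER5, an immediate early gene that acts with heat shock factor, stood at 9.27, 9.27 and 9.37 in DMSO and at 12.56, 12.57 and 12.63 in NSC12. That is a change of 3.29 ± 0.09 with no overlap. Across 29 immediate early and AP-1 genes, 7 rose and none fell, while the list median was -0.03. KLF6 (0.94 ± 0.15), EGR1 (0.73 ± 0.10) and JUND (0.47 ± 0.06) were among the risers, and BHLHE40, a repressor in the circadian clock that also responds early to stimuli, rose by 0.97 ± 0.07. The FOS family partners of JUN in AP-1 did not pass: FOS was at -0.43 (adjusted p = 0.0540), FOSB at -0.11, FOSL1 at 0.11 and FOSL2 at 0.26.

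Among dual-specificity phosphatases, which turn off MAP kinases, 5 of 11 rose and none fell, with a median of 0.21. DUSP1 encodes a phosphatase that removes the activating phosphates from p38 and JNK. Its level was 10.26, 9.65 and 9.95 in DMSO and 12.05, 12.08 and 12.03 in NSC12, and DMSO replicate 1 lay highest of the controls, still well below the treated arrays. The change was 2.10 ± 0.12 (adjusted p = 2.5e-11). DUSP2, which acts on ERK, rose by 1.53 ± 0.10, DUSP10 by 0.68, DUSP16 by 0.60 and DUSP5 by 0.37, the last lost under median centring (0.32). Outside that list, RGS1 and RGS2 shorten signals from G protein-coupled receptors. RGS1 went from 11.73, 11.64 and 11.63 to 13.79, 13.76 and 13.65, a rise of 2.07 ± 0.08 without overlap, and RGS2 rose by 1.24 ± 0.08. RASD1, a small GTPase of the RAS family, rose by 2.49 ± 0.08 and GADD45B, a stress sensor that binds MAPK kinases, by 2.16 ± 0.09. TIPARP, an ADP-ribosyltransferase, rose by 1.33 ± 0.07.

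**Figure D2:**
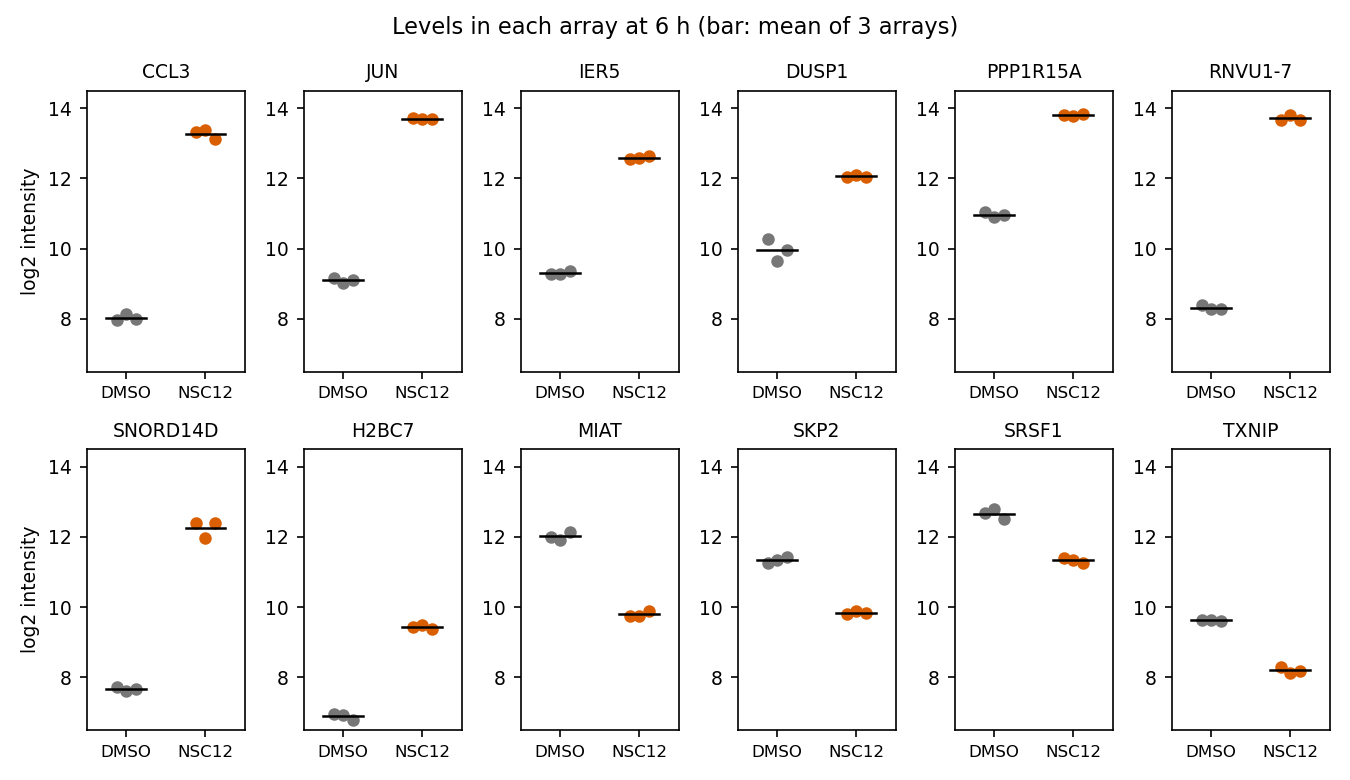
Log2 intensity of 12 genes in each of the 3 DMSO arrays (grey) and 3 NSC12 arrays (orange) of 6 h, with a bar at each group mean. In all 12 panels the groups do not overlap, upward in CCL3, JUN, IER5, DUSP1, PPP1R15A, RNVU1-7, SNORD14D and H2BC7 and downward in MIAT, SKP2, SRSF1 and TXNIP.

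PPP1R15A directs the removal of the phosphate from eIF2alpha and so lets translation resume. It lay at 11.03, 10.90 and 10.95 in DMSO and at 13.81, 13.78 and 13.84 in NSC12, a rise of 2.85 ± 0.06 (adjusted p = 1.44e-19) with replicates that hardly differed. DDIT3, the stress factor CHOP, rose by 1.95 ± 0.07, and ATF3 by 2.22 ± 0.08 on its 1 probe above background (0.77 over its probes). TRIB1, a pseudokinase that promotes degradation of C/EBP factors, rose by 0.63 and GADD45A, a growth arrest gene, by 0.53, both lost under median centring (0.45 and 0.37). Of 23 regulators of the integrated stress response, 7 rose and 4 fell, with a median of 0.02.

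Many genes that supply amino acids and charge transfer RNAs are known ATF4 targets. Of 18 cytosolic aminoacyl-tRNA synthetases, 8 fell and none rose, with a median of -0.19, although only 4 were called under median centring. WARS1 (-0.55 ± 0.08) and MARS1 (-0.49 ± 0.07), which charge tryptophan and methionine transfer RNAs, fell on every setting tried. IARS1 fell by 0.63 and VARS1 by 0.45, both smaller as the mean of their probes (-0.30 and -0.24), and the other IARS1 probe was at 0.04. Of 21 genes of amino acid transport and synthesis, 2 rose and 5 fell, with a median of -0.16. The 2 partners of the large neutral amino acid transporter moved in opposite directions. SLC3A2, its heavy chain, rose from 11.49 ± 0.06 (SD, n = 3) to 12.20 ± 0.07, and SLC7A5, its light chain, fell from 13.30 ± 0.08 to 12.83 ± 0.05. PSPH, the last enzyme of serine synthesis, fell by 0.59 (-0.33 as the mean of probes, with the other probe at -0.07). CBS, which makes cystathionine, fell by 0.39 and CTH, which splits it to cysteine, rose by 0.47, both lost under median centring (-0.52 and 0.35), and CTH was at 0.24 as the mean of its probes. Of 24 endoplasmic reticulum stress genes, 1 rose and 1 fell, with a median of -0.03.

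PPP1R15A and DUSP1 share a perfect cyclic AMP response element, the site of CREB and ATF family factors, in the 250 bases before their RefSeq start sites (GRCh38.p14). Their promoters are shown because these genes lead their lists and hold the element. The element, TGACGTCA, reads the same on both strands and is in capitals. PPP1R15A lies on the plus strand and its window is chr19:48872171-48872420. DUSP1 lies on the minus strand and its window is chr5:172771196-172771445.
PPP1R15A: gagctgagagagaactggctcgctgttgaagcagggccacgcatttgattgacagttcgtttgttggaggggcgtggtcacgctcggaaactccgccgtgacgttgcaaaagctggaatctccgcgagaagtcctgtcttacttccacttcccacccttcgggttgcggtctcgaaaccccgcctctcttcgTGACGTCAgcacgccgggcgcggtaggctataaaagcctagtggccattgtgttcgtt
DUSP1: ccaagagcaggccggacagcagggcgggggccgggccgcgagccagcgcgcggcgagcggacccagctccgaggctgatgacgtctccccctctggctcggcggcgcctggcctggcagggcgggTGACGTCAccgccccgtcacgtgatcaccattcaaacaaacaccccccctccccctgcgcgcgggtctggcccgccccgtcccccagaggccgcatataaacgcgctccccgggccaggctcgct
The element starts 58 bases before the start site in PPP1R15A and 125 bases before it in DUSP1. Over windows of 300 bases, 7 of 55 genes that rose at least 2-fold and had a promoter entry held it (12.73%), beside 326 of 9516 genes above background (3.43%). CCNL1 and 4 histone genes were the other holders, so outside the histones the count was 3 of 34. The promoters of CCL3, JUN, IER5, ATF3 and DDIT3, which also rose at least 2-fold, held no match to these letters. A match says only that these letters are present.

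Of 70 measured replication-dependent histone genes, 40 rose and 1 fell, with a median of 0.39. Their transcripts normally end in a stem-loop without a poly(A) tail and are made in S phase to package new DNA. The labelling kit named in the labels starts from poly(A), so such transcripts are read here only as far as they carry a tail or are primed internally. All classes took part: 10 of 13 H3, 10 of 19 H2B, 9 of 17 H2A, 7 of 15 H4 and 4 of 6 H1 genes rose. H2BC7 lay at 6.97, 6.92 and 6.78 in DMSO, at or below background, and at 9.43, 9.49 and 9.39 in NSC12, which is at least 5.50-fold higher. H3C4, its neighbour on the opposite strand, rose by 2.32 ± 0.08. H2AC20, already at 10.18 ± 0.03 in DMSO, rose to 12.13 ± 0.06, and H2BC8 rose by 2.13 and H3C13 by 1.89 (1.02 as the mean of its probes, another of which was at -0.24). Histone genes resemble each other closely, so the count of members is uncertain where probes share signal.

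The H2BC7 promoter is shown because it belongs to the histone gene that rose most. It carries 3 copies of the CCAAT box, bound by the factor NF-Y, in capitals and written as ATTGG where it lies on the other strand. The window on the plus strand is chr6:26199266-26199515.
H2BC7: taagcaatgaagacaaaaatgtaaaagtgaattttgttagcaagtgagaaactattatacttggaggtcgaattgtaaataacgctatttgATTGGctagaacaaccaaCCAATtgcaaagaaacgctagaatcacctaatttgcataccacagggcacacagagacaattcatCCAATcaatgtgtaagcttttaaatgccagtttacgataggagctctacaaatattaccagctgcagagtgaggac
Of 55 promoters of genes that rose at least 2-fold, 35 held a CCAAT box on either strand (63.64%), beside 37.12% of the 9516 genes above background. The histone promoters accounted for 18 of 21 (H2AJ, a histone gene outside the list, included) and the others for 17 of 34.

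Spliceosomal small nuclear RNAs rose as well, with the same limit from poly(A) labelling. Of 15 measured, 11 rose and none fell, with a median of 0.69. RNVU1-7, a variant of the U1 RNA that marks the start of introns, went from 8.41, 8.27 and 8.29 to 13.67, 13.81 and 13.67. That change of 5.39 ± 0.09 stood beside those of RNU1-3 (5.39), RNVU1-18 (5.11) and RNU1-1 (4.80), whose sequences are nearly identical and cannot be told apart by the probes. Their NSC12 levels of 13.37 to 13.90, like those of JUN, PPP1R15A and RGS1, lay near the top of the scale, whose highest level was 14.37, so the order of their changes is uncertain. RNU11, of the minor spliceosome, has its own sequence and rose by 2.62 ± 0.08. RN7SK, the RNA that holds the elongation factor P-TEFb inactive, rose by 1.50 ± 0.14, while of 21 genes of P-TEFb and its regulators 3 rose and none fell. CDK9, its kinase, rose by 0.42 and BRD2, a reader of acetylated histones, by 0.27, both lost under median centring (0.24 and 0.21).

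Small nucleolar RNAs, which guide modification of ribosomal RNA and sit mostly in introns of host genes, moved both ways. The limit from poly(A) labelling holds here too, so these values need not be levels of the mature RNAs. Of 176 box C/D members, 24 rose and 11 fell, and of 101 box H/ACA members, 21 rose and 10 fell, with medians of 0.03 and 0.02. SNORD14D lay at 7.74, 7.61 and 7.68 in DMSO and at 12.40, 11.96 and 12.39 in NSC12. It rose by 4.58 ± 0.15 and SNORD14C by 3.68 ± 0.14, both inside the gene HSPA8, whose own probe changed by 0.07 (adjusted p = 0.523) at a level of 13.81, near the top of the scale. SNORA61 fell by 1.74 ± 0.08 within SNHG12, which did not pass (0.08), and SNORD31 fell by 1.18 within SNHG1, which did not pass either (0.17). SNORA28 rose by 1.46 although its host EIF5, a translation factor, fell by 0.74 (-0.35 as the mean of its probes). The host was taken as the shortest measured protein-coding or long noncoding gene that encloses the snoRNA, whatever its strand. Some hosts may therefore be wrongly assigned. Among 56 called snoRNAs inside 41 measured hosts, the host was called the same way for 11, the opposite way for 8 and not called for 37. Some uncalled hosts could hardly show a change, such as SNHG3 below background (6.93 in DMSO) and RPS12 near the top of the scale (14.12). SNORD3A, the U3 RNA needed to cut the ribosomal precursor, rose by 2.14 with its near copies SNORD3D (1.97) and SNORD3C (1.67), and SNORA73A and SNORA73B fell by 0.95 and 1.01.

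**Figure D3:**
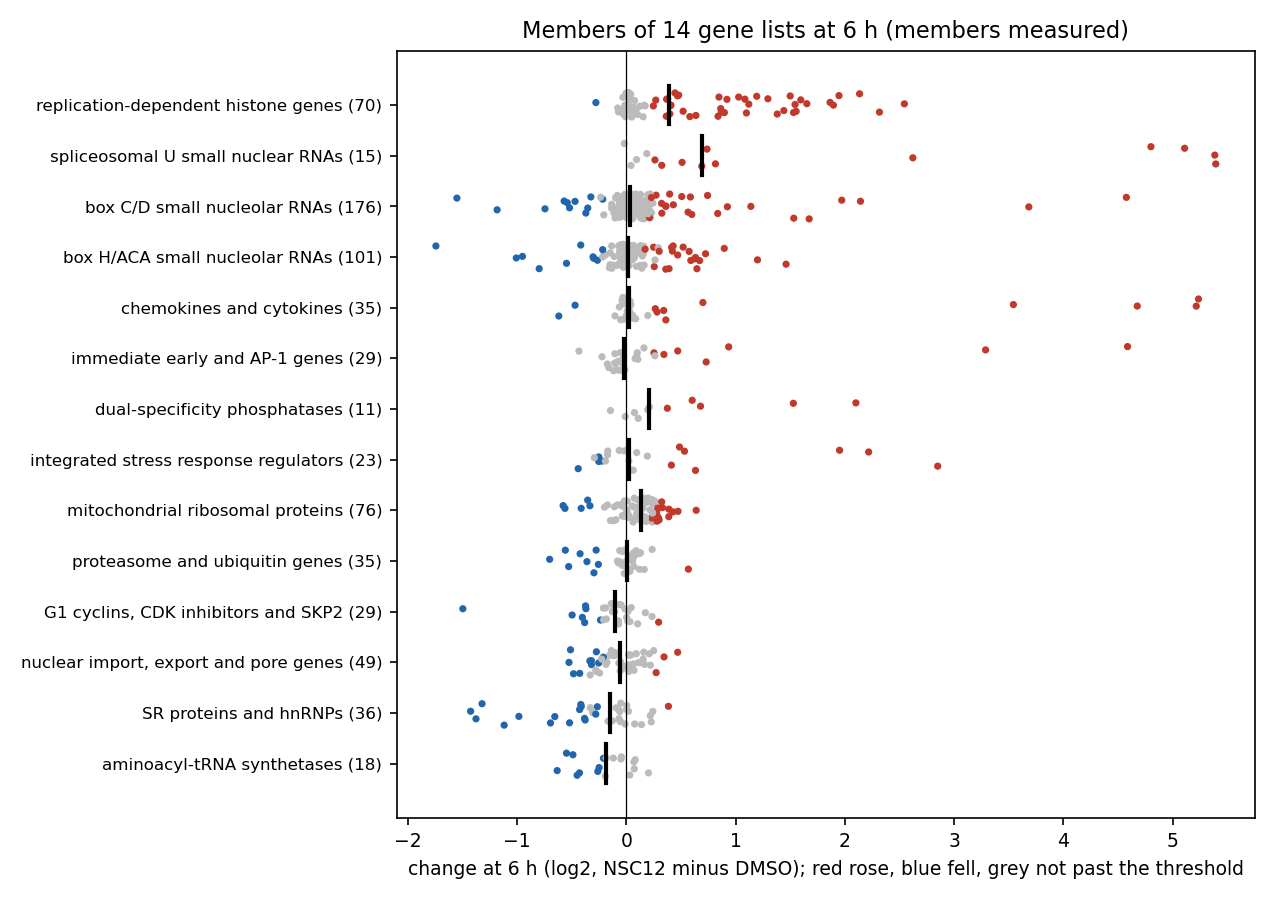
Change at 6 h (log2, NSC12 minus DMSO, horizontal) of each measured member of 14 gene lists, coloured where it passed, with a black bar at the list median. Histones (median 0.39) and U small nuclear RNAs (median 0.69) lie to the right, and SR proteins and hnRNPs (median -0.15) and aminoacyl-tRNA synthetases (median -0.19) to the left.

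SR proteins and hnRNPs bind exons and introns to steer splice site choice, and several limit their own level by splicing in a poison exon. Of 36 members, 15 fell and 1 rose, with a median of -0.15. TRA2B lay at 12.05, 12.11 and 11.85 in DMSO and at 10.75, 10.62 and 10.36 in NSC12, a fall of 1.43 ± 0.11 (adjusted p = 3.27e-09). Its relative TRA2A fell by 1.38 ± 0.09. SRSF1, the founding SR protein, stood at 12.68, 12.78 and 12.51 in DMSO and at 11.40, 11.36 and 11.25 in NSC12. Neither gene's arrays overlapped, and SRSF1 fell by 1.32 ± 0.08. HNRNPA0 fell by 1.12, HNRNPH3 by 0.98, SRSF4 by 0.66 and SRSF6 by 0.52. CIRBP, a cold-inducible RNA-binding protein, fell by 0.70. Among 11 splicing kinases, which phosphorylate SR proteins, 3 rose and 1 fell. CLK1 rose by 0.63 and CLK3 by 0.62, both lost under median centring (0.46 and 0.42), and CLK3 was at 0.40 as the mean of its probes.

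In the transcription machinery, POLR2B, the second largest subunit of RNA polymerase II, fell from 10.42, 10.46 and 10.44 to 9.31, 9.36 and 9.14. It fell by 1.17 ± 0.09, the largest fall among 54 polymerase II, Mediator and TFIID genes, of which 3 rose and 9 fell. TAF7, a TFIID subunit that checks initiation, rose by 0.79 ± 0.08, and MED10, of Mediator, fell by 0.43. Of 33 mRNA decay factors, 3 rose and 6 fell. ZFP36 and ZFP36L1, which bind AU-rich elements and speed decay, rose by 0.67 and 0.73, ZFP36 losing its call under median centring (0.50). EDC4, a decapping scaffold, fell by 0.51, and CNOT1, the deadenylase scaffold, by 0.61 (-0.20 as the mean of its probes). Another CNOT1 probe above background was at -0.03. Of 31 histone demethylases and deacetylases, 1 rose and 4 fell. HDAC1 fell from 12.55 ± 0.03 to 11.91 ± 0.09 (SD, n = 3), HDAC2 by 0.56 (-0.32 as the mean of its probes) and HDAC8 by 0.50. The other HDAC2 probe, above background, was at -0.08.

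Long noncoding RNAs held the largest fall of all. MIAT, a nuclear RNA known to bind splicing factors, lay at 11.99, 11.92 and 12.15 in DMSO and at 9.74, 9.75 and 9.88 in NSC12. It fell by 2.23 ± 0.08 (adjusted p = 2.06e-15). PVT1, the neighbour of MYC, rose by 1.47 ± 0.10, and ZFAS1, EPB41L4A-AS1 and SNHG15, hosts of snoRNAs, rose by 1.02 (0.50 as the mean of its probes), 0.88 and 0.72. Across all 798 genes that RefSeq classes as long noncoding, 13 rose and 52 fell, and of 17777 protein-coding genes 1016 rose and 1399 fell.

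The risers of at least 2-fold had a short median span. Among protein-coding genes above background, the median genomic span in RefSeq was 2.2 kb for 58 that rose at least 2-fold, 23.5 kb for 27 that fell at least 2-fold and 29.7 kb for all 11170. Over all rises the median was 26.2 kb and over all falls 32.7 kb. Genes under 5 kb rose in 14.29% of cases and fell in 9.52%, genes of 20 to 50 kb rose in 6.95% and fell in 14.8%, and genes over 200 kb rose in 12.92% and fell in 9.3%. Histones and other compact families make up much of the first class.

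Several cell cycle genes were lower, most of all SKP2, the ubiquitin ligase subunit that marks the CDK inhibitor CDKN1B for degradation. SKP2 lay at 11.27, 11.33 and 11.44 in DMSO and at 9.81, 9.88 and 9.85 in NSC12. The groups stood apart, with a fall of 1.50 ± 0.07 on the brightest probe and of 0.93 over its 3 probes. Of 29 G1 cyclins, CDK inhibitors and their regulators, 7 fell and 1 rose, with a median of -0.11. CDC25A, the phosphatase that activates CDK2, fell by 0.40 and CCNE1, its cyclin, by 0.38. CCND2, the D cyclin of this line, fell by 0.37 and E2F2 by 0.37, both lost under median centring (-0.37 and -0.42). Of 39 DNA replication genes, 3 rose and 9 fell, led by POLD1, the catalytic subunit of polymerase delta (-0.90 ± 0.12), and RFC4, of the clamp loader (-0.61 ± 0.07). Of 37 mitotic genes, all above background, 4 fell and none rose, a smaller share than the calls among all genes above background. Among them CCNF, a cyclin F-box protein, fell by 0.62 ± 0.07. MYC rose by 0.34 ± 0.08, lost under median centring although the change there was 0.36. MYCN, a relative of MYC, lay at 11.01 ± 0.06 in DMSO and fell by 1.12 ± 0.09.

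The p53 target list gave 5 rises and 3 falls among 26 genes. GADD45B, above, led the rises, PPM1D, the phosphatase that shuts p53 down, rose by 0.56 (0.38 and lost under median centring), and ZMAT3, an RNA-binding target, fell by 0.55 ± 0.09. In DNA repair, PARP1, which senses strand breaks, fell from 13.38, 13.59 and 13.49 to 12.35, 12.23 and 12.35. Its groups did not overlap, and it fell by 1.17 ± 0.07. CHEK1, a checkpoint kinase, rose by 0.54 (0.36 and lost under median centring), within a list of 25 recombination and Fanconi genes of which 2 rose and 3 fell.

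In metabolism, TXNIP, which binds thioredoxin and restrains glucose uptake, was the largest change. It lay at 9.63, 9.62 and 9.62 in DMSO and at 8.30, 8.13 and 8.19 in NSC12, a fall of 1.42 ± 0.07. ARRDC3, a related arrestin-domain gene, moved the other way and rose by 0.96 ± 0.12, and SLC2A1, the glucose transporter GLUT1, rose by 0.46 (0.29 and lost under median centring). Of 23 glycolytic enzymes, 3 fell and none rose, with a median of 0.00. MAT2A, which makes the methyl donor S-adenosylmethionine, fell by 1.11 ± 0.06. FASN, fatty acid synthase, fell by 0.72 ± 0.08 among 16 fatty acid synthesis genes of which 6 fell and none rose. In cholesterol synthesis 6 of 23 genes rose and 4 fell, with HMGCS1, the enzyme before HMG-CoA reductase, up by 0.60 (0.44 and lost under median centring) and LSS, lanosterol synthase, down by 1.13 (-0.40 as the mean of its probes). The other LSS probes, both above background, were at -0.06 and -0.01, so its fall rests on the brightest probe. DOLK, which makes the lipid carrier of N-glycans, fell by 1.18 ± 0.09, and ATP6V0A1, of the lysosomal proton pump, by 1.24 ± 0.08.

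Of 76 mitochondrial ribosomal proteins, 14 rose and 5 fell, with a median of 0.13. MRPS30 rose by 0.64 and MRPS18A by 0.47, both lost under median centring (0.48 and 0.29), and MRPS25 fell by 0.56. Among 23 genes of mitochondrial transcription and replication, 1 rose and 3 fell: TFB2M, which opens mitochondrial promoters, fell by 1.13 ± 0.08, POLG, the mitochondrial DNA polymerase, by 0.54 and its partner POLG2 by 0.56. Of 35 proteasome and ubiquitin genes, 8 fell and 1 rose. VCP, the segregase that feeds proteasomes, fell by 0.70 ± 0.07, PSMD3 by 0.56 and PSMB2 by 0.53. Of 46 ribosome biogenesis factors, 6 rose and 3 fell, and of 78 cytosolic ribosomal proteins 9 rose and 1 fell, with medians of 0.00 and 0.06.

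Some nuclear envelope and transport genes were lower. SUN2, which ties the nuclear lamina to the cytoskeleton, fell by 1.23 ± 0.07. Of 49 import, export and pore genes, 10 fell and 3 rose, with a median of -0.06, and NUP133 was at -0.53, NUP210 at -0.51 and IPO4 at -0.48. KPNB1, the main import receptor, fell by 0.43 and NUP155 rose by 0.47, both lost under median centring (-0.48 and 0.29). The remaining falls among the largest included ZC3HAV1, an antiviral RNA-binding protein, at -2.07 on its brightest probe, DIDO1, a chromatin reader, at -1.22 (-0.44 as the mean of its probes), ANKRD49 at -1.21, LINC00938 at -1.16, VTRNA2-1 at -1.11, SNORD104 at -1.55 and SNAR-A1 at -1.71. The probes of ZC3HAV1 disagreed, since its other probes above background changed by 0.28 and 0.44 and the mean was -0.45, so its direction is uncertain. The other DIDO1 probes, above background, were at -0.08 and -0.02, so its fall rests on the brightest probe. Among the rises not yet named, SERPINH1, the collagen chaperone HSP47, rose by 2.85 ± 0.10, and SLC30A1, the zinc exporter, rose by 2.70 ± 0.07.

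At 6 h, genes of myeloma identity and of the pathway NSC12 was made against were called about as often as all genes above background. Of 25 plasma cell factors and surface markers, of which 22 lay above background, 3 rose and 3 fell. In either direction 13.1% of all genes tested passed, and 2581 of the 11941 genes above background. IRF4, on which myeloma cells depend, rose by 0.33 (0.18 and lost under median centring), and ITGB7, an integrin, fell by 0.34 (lost under median centring at -0.41). Of 26 FGF receptors, ligands and feedback inhibitors, 3 rose and 2 fell, with a median of -0.01. FGFR3 lay at 13.96, 13.89 and 13.90 in DMSO and at 13.86, 14.00 and 13.87 in NSC12. These arrays overlap, and the change was -0.01 ± 0.06 (adjusted p = 0.952) near the top of the scale. IL17RD, which restrains FGF receptors, changed by -0.85 ± 0.10 on its 1 probe above background and by -0.25 over its probes. BAMBI, a decoy receptor of TGF-beta signalling, rose by 0.76 ± 0.08 and ID2, a target of that family, fell by 0.50 ± 0.10, in a list of 20 with 1 rise and 4 falls. Of 22 NF-kappaB genes 1 rose and 2 fell, of 21 NRF2 targets none rose and 1 fell, of 22 hypoxia-inducible genes 3 rose and 1 fell, and of 28 interferon response genes 2 rose and 2 fell. In the NRF2 list ABCB6, a heme-pathway transporter, was the gene that fell (-0.76 ± 0.09), and in the hypoxia list HIF1AN, which inhibits HIF1A, fell by 0.71 ± 0.09. Of 483 genes named ZNF, 40 rose and 44 fell, with a median of -0.01.

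The 6 h effect was then set beside the effect at 12 h, which has its own DMSO arrays. Of the 1114 genes that rose at 6 h, 821 (73.7%) were called higher and 25 lower at 12 h, and 268 were not called. Of the 1505 that fell, 1157 (76.9%) were called lower, 34 higher and 314 not. A test of the difference itself found a larger effect at 12 h for 150 of the rises and 327 of the falls, and a smaller or reversed one for 104 and 149. Over all genes the difference was called higher for 933 (4.65%) and lower for 1156 (5.77%), against 277 and 87 under median centring.

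**Figure D4:**
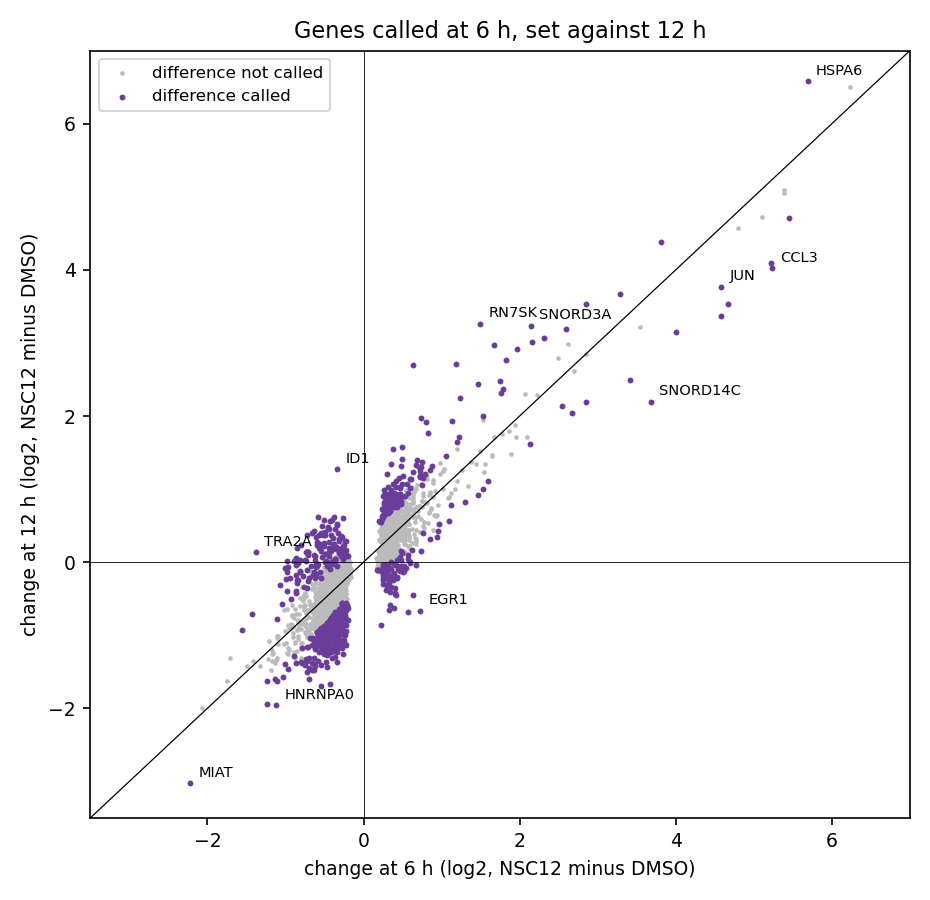
Change at 6 h (log2, horizontal) against change at 12 h (log2, vertical) for the 2619 genes called at 6 h, coloured where the difference between the times was called. Most points lie along the diagonal, with TRA2A and EGR1 returned to or past zero at 12 h and RN7SK and SNORD3A further out.

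Some early changes were gone or reversed by 12 h. At 6 h TRA2A averaged 9.77 ± 0.15 (SD, n = 3) with DMSO and 8.39 ± 0.11 with NSC12. At 12 h the means were 9.43 ± 0.14 and 9.56 ± 0.02. Its change went from -1.38 to 0.13 (difference 1.51 ± 0.13, adjusted p = 4.07e-07). TRA2B, which fell as far at 6 h, was still lower at 12 h (-0.71), whereas SRSF1 (-1.43) did not differ detectably between the times. EGR1 changed by 0.73 at 6 h and by -0.66 at 12 h, and part of that turn lies in the controls, which averaged 7.24 at 6 h and 7.98 at 12 h. TRIB1 went from 0.63 to -0.45, MYC from 0.34 to -0.59, IRF4 from 0.33 to -0.40 and PSMC4, a proteasome ATPase, from 0.57 to -0.69. The 6 h call of PSMC4 ended under median centring (0.39), as the mean of its probes (0.42) and without DMSO replicate 2 (0.48), NSC12 replicate 1 (0.59) or NSC12 replicate 3 (0.50). ZFP36 went from 0.67 to -0.03, JUND from 0.47 to 0.06, RHOB from 0.54 to -0.09 and IL10 from -0.62 to 0.08. Part of some of these turns lies in the controls too. DMSO means at 6 h and 12 h were 10.43 and 10.81 for ZFP36, 7.83 and 8.17 for RHOB, 10.78 and 11.14 for IRF4. They were 10.26 and 10.52 for TRIB1, and those of JUND moved less (13.29 and 13.41). AOC4P, a pseudogene transcript, went from -1.01 to -0.08, and ABRAXAS1, of the BRCA1 complex, from -0.98 (-0.52 as the mean of its probes) to 0.02. The changes of CCL3 (4.02) and JUN (3.77) were smaller at 12 h, and both stayed high. Their DMSO levels were 8.99 and 9.63 then, against 8.03 and 9.10 at 6 h. Under median centring the differences between the times of TRA2B, MYC, IRF4, ZFP36, JUND, RHOB and JUN were not called.

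**Figure D5:**
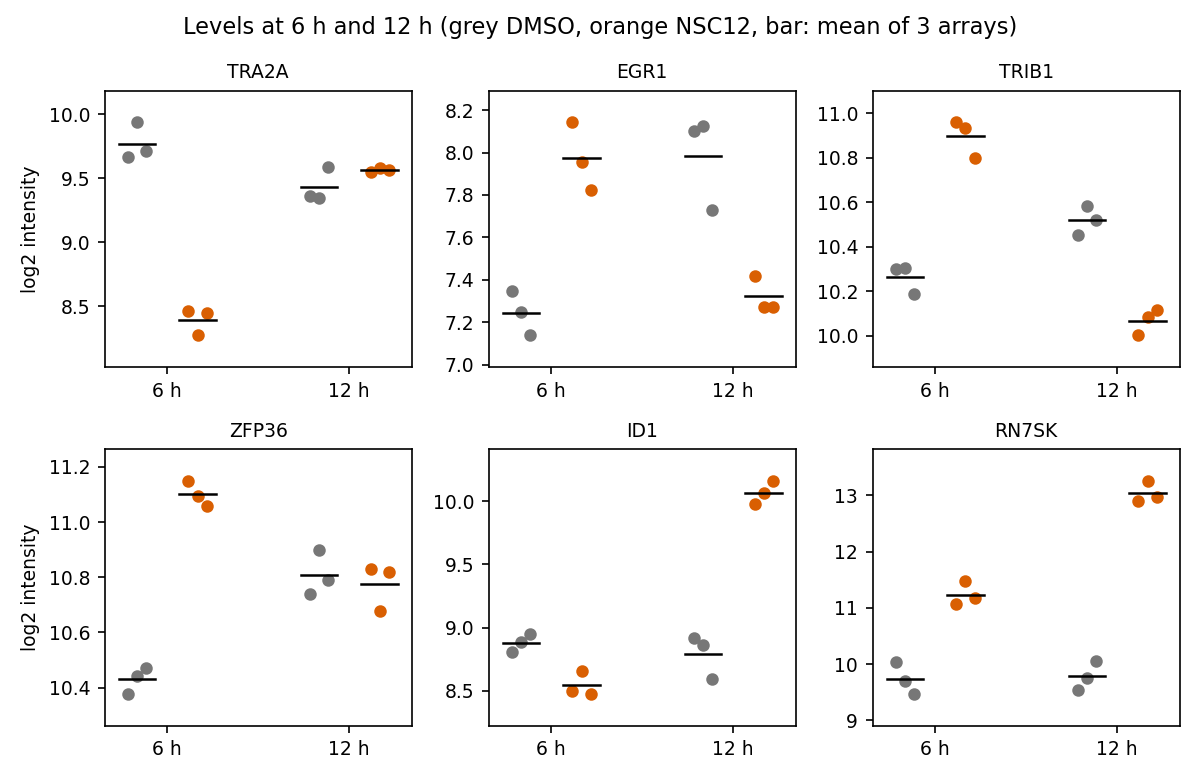
Log2 intensity of 6 genes in the 12 arrays, DMSO grey and NSC12 orange, at 6 h and 12 h, with a bar at each group mean and a separate vertical scale for each gene. NSC12 lies below DMSO at 6 h and level with it at 12 h in TRA2A, and above and then level with it in ZFP36. It crosses DMSO in EGR1, TRIB1 and ID1 and moves further from it in RN7SK.

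Other genes had only begun to move at 6 h. RN7SK went from 1.50 to 3.26, SNORD3C from 1.67 to 2.97 and RNU6-1, the U6 RNA, from 0.74 to 1.98, and the DMSO levels of RN7SK were 9.74 at 6 h and 9.78 at 12 h. ID1, an inhibitor of differentiation factors, was lower at 6 h (-0.34) and higher at 12 h (1.28). Its 6 h call ended as the mean of its probes (-0.10) and without DMSO replicate 3 (-0.30), NSC12 replicate 1 (-0.32) or NSC12 replicate 3 (-0.31). MEF2D, a transcription factor, went from -0.54 to -1.69 and PGAM1, of glycolysis, from -0.43 to -1.67, PGAM1 losing its 6 h call as the mean of its probes (-0.40) and without DMSO replicate 3 (-0.37) or NSC12 replicate 2 (-0.34). Genes that did not pass at 6 h and differed by 12 h included RRM2, which supplies deoxynucleotides (0.24 and -1.19), WEE1, a mitotic inhibitor (0.02 and -1.06), XPOT, a transfer RNA exporter (-0.28 and -1.69), and HNRNPL, a splicing factor (-0.01 and 1.37). The 12 h DMSO arrays were widely spread for XPOT (SD 0.59, n = 3) and HNRNPL (SD 0.69, n = 3). RPPH1, the RNA of ribonuclease P, stood at 0.18 at 6 h and 1.40 at 12 h, and SNORD46 at 0.12 and 1.50.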

How the data were processed

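Biotin-labelled cRNA made from total RNA was hybridised to Illumina arrays, per the labels. The authors' deposited table holds linear intensity values of 47319 probes on 12 arrays. How the scanner values were background-corrected or normalised is not given in the sources used here, and an additive background left in the values would understate changes of dim genes. The number of arrays limits the precision.

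Intensities were floored at 16, quantile normalised over all 12 arrays and taken to log2. The platform annotation gave 1 symbol for 30111 probes, of which 30072 matched a RefSeq gene (GRCh38.p14) by Entrez identifier and took its current symbol. Each of the 20045 genes was represented by its brightest probe, and 6691 had several. A single limma 3.58.1 model (R 4.3.3) held all groups, each with its mean, and let the variance follow intensity. Calls were made at 0.05 after Benjamini-Hochberg adjustment over all genes. Where a gene lay below background in a group, a fold is a bound against that level.

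The members and gene lists were chosen with earlier results of these data known. Named genes were the 25 largest rises and falls at 6 h outside heat shock, metallothionein and immunoglobulin genes, the largest differences between the times and up to 5 called members of each list, and HSPA6, MT1G, MYC, FGFR3, IRF4 and CCND2. Members whose call ended when a single array was left out were mostly counted and not named. CCNL1, CIRBP, RGS2, TIPARP, SRSF4, SRSF6, SLC7A5, ZMAT3, JUND, IL10, AOC4P, ABRAXAS1, the FOS genes and the snoRNA hosts were added after their values were seen. Motifs were searched on both strands of RefSeq promoters. They were the heat shock, metal response, cyclic AMP response and serum response elements, the CCAAT box and the GC box. The E-box, CARE (TGATGNAA), AP-1 and NF-kappaB sites were searched too. Only the cyclic AMP response element and the CCAAT box are reported. The genes whose 12 h values are given were also chosen with their values known. The alternatives were median centring, cyclic loess, normexp background correction with offset 50, the mean of probes, only genes above background, only the 6 h arrays, no intensity trend, array brightness as a covariate, the replicate number as a block and each array left out. The fit was tested on simulated data. Figures were drawn with matplotlib 3.10.9.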

Additional observations from a re-analysis of the deposited data

Results flagged for a closer look

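Results are listed here because a test of the difference found that the effect of NSC12 at 12 h was not the effect at 6 h. Each value is the 12 h effect minus the 6 h effect on the log2 scale. Over all genes the difference was called higher for 933 and lower for 1156.

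The call of 6 h turned into the opposite call at 12 h for ID1 (1.61), EGR1 (-1.39), PSMC4 (-1.25), TRIB1 (-1.08), MYC (-0.93) and IRF4 (-0.74). It was no longer made at 12 h for TRA2A (1.51), ABRAXAS1 (1.00), AOC4P (0.93), IL10 (0.70), ZFP36 (-0.70), RHOB (-0.63) and JUND (-0.41). Some of these 6 h calls depended on the processing. Those of PSMC4, TRIB1, MYC, IRF4 and ZFP36 ended under median centring, and those of ID1 and PSMC4 as the mean of probes. The change was smaller at 12 h, though still called, for CCL3 (-1.21), JUN (-0.82) and TRA2B (0.71). It was larger for RN7SK (1.77), SNORD3C (1.29), RNU6-1 (1.24) and SNORD3A (1.09), which rose, and for PGAM1 (-1.24) and MEF2D (-1.15), which fell. Genes that had not passed at 6 h and differed were HNRNPL (1.38), SNORD46 (1.37), RPPH1 (1.23), RRM2 (-1.43), XPOT (-1.41) and WEE1 (-1.09).

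These 28 genes are the ones whose 12 h values are shown, and they were chosen with those values known, so how well they held is not that of named genes at large. Of all 77 named genes whose difference was called, 34 kept the call under median centring, 71 with array brightness as a covariate, 72 under cyclic loess, 72 as the mean of probes and 68 to 75 without a single array. ARRDC3, BRD2, H2BC7, IER5, LSS, TAF7, EPB41L4A-AS1 and ATP6V0A1 lost it most often among those settings outside median centring. Of the 28 shown, 21 kept it under median centring, and it ended there for TRA2B, ZFP36, JUND, RHOB, MYC, IRF4 and JUN. The 28 kept it under the other alternatives run. The cause of these differences was not tested.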

How the results depend on the processing

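Of 152 named genes called at 6 h, 125 kept their call in every alternative run, and none changed sign with a call. This share is high in part because list members that depended on a single array were mostly left unnamed. Median centring ended 24 calls and the mean of probes 4, and cyclic loess, normexp, the filter on dim genes, the 6 h arrays alone, the fit without a trend and the brightness covariate ended none. Under median centring the counts were 276 higher at 6 h, 1483 higher at 12 h, 277 higher and 87 lower for the difference between the times, and 4 aminoacyl-tRNA synthetases lower, so rises made up 36.3% of the calls at 12 h in place of 47.3% and 76.1% of those for the difference in place of 44.7%. The cause was not tested. Without 1 array the 6 h counts ran from 850 to 1240 higher and from 1130 to 1656 lower, those at 12 h from 2382 to 2780 and from 2684 to 3094, and those for the difference from 649 to 995 and from 892 to 1182. The lists ran from 38 to 40 histones, 10 to 11 U small nuclear RNAs and 5 to 6 phosphatases higher, and from 12 to 16 SR proteins and hnRNPs and 6 to 9 synthetases lower. With the replicate number as a block, 1068 genes rose and 1436 fell at 6 h, and no named call was lost. Deviations of same-numbered DMSO and NSC12 arrays correlated at 0.0559, 0.0583 and 0.0571 across genes, each highest for its own number but too weakly to pair the samples. A total of 4746 genes had an unadjusted p under 0.05 at 6 h. Dim genes, saturating probes and the spread between arrays limit what 3 arrays a group can show.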
